A study of Mus musculus with 6 samples.

Results

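The immediate early genes *Fos*, *Fosb*, *Jun*, *Junb*, *Egr1*, *Ier2*, *Dusp1*, *Atf3*, *Nr4a1* and *Zfp36* were examined in AML blasts from 6 mice. The 10 genes were taken by symbol from the 53458 annotated genes with transcripts in the quantification, and reads assigned to their transcripts were summed per gene. All 10 were among the 22170 genes tested. The cells came from C57BL/6 bone marrow transplanted into irradiated young adult female congenic C57BL/6J.SJL recipients, in which Mx1-Cre was induced with poly(I)-poly(C) after engraftment. Both genotypes carry 1 *Cebpa* allele that makes only the p30 isoform and 1 deleted *Cebpa* allele. The Cebpa-/p30 Tet2+/+ group held mice 19, 23 and 24, and the Cebpa-/p30 Tet2-/- group, in which *Tet2* was deleted as well, held mice 5, 7 and 8. Marrow of moribund mice was kept frozen, and living CD45.2+ cells without CD3, B220 or Ter119 were sorted by FACS before RNA was isolated. The Mx1 promoter answers to interferon in many cell types, no untreated or non-leukemic group is part of the comparison, and RNA was taken from the whole sorted population.

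Immediate early genes are transcribed within minutes of a signal, without new protein synthesis, because their promoters are held ready by serum response factor, its ternary complex partners and CREB. Growth factors, cytokines, cell adhesion, heat and the handling of cells all switch them on, mostly through MAP kinases. Several of their products are transcription factors that pass the signal on, while DUSP1 and ZFP36 end it, and most of the transcripts are short-lived. In myeloid cells, EGR1, JUN and FOS are linked to monocytic differentiation, and NR4A1 together with NR4A3 restrains leukemia in mice.

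Promoters on which such signals act are shown for 4 members whose values the results turn on, *Fos* and *Nr4a1*, which moved alike among the mice, and *Dusp1* and *Zfp36*, which formed a different pattern. The RefSeq promoter collection (GRCm38.p6) matched 8 of the 10 genes, and *Egr1* and *Ier2* were not matched. Each line gives the 250 bases before the RefSeq start, 5′ to 3′ on the strand of the gene, with capitals for the letters of a searched motif. *Fos* (plus strand, chr12:85473640-85473889), *Nr4a1* (plus strand, chr15:101266596-101266845), *Dusp1* (minus strand, chr17:26508473-26508722) and *Zfp36* (minus strand, chr7:28379229-28379478) read as follows.
Fos: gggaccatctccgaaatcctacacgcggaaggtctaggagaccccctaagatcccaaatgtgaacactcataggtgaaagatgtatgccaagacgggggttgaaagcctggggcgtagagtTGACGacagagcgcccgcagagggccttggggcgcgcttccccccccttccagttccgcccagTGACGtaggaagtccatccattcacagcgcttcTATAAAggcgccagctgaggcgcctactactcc
Nr4a1: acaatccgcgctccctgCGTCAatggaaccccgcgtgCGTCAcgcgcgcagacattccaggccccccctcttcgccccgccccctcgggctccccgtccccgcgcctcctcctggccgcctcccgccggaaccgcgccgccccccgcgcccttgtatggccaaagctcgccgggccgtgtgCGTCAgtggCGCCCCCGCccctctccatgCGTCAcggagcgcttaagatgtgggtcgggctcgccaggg
Dusp1: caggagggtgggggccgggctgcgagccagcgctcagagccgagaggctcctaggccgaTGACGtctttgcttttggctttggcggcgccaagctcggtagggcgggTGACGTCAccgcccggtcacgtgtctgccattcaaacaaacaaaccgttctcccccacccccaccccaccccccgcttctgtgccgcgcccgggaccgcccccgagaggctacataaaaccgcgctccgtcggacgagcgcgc
Zfp36: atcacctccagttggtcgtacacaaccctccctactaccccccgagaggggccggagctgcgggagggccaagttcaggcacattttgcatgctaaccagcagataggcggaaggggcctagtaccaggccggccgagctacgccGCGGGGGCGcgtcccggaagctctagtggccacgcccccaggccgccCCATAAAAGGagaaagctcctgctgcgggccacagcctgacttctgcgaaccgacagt

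Motifs were searched on both strands, in these 250 bases plus the 50 bases after the start. The full cAMP response element TGACGTCA, which CREB and ATF proteins bind, was found in 1 of the 8 promoters, that of *Dusp1*, 143 bases before the start, against 1.80% of 32544 distinct promoters. Its core TGACG, which every full element also holds, was present in 6 of 8 promoters (*Fos*, *Fosb*, *Junb*, *Nr4a1*, *Dusp1* and *Atf3*) against 20.9% of all. *Nr4a1* held 4 copies, each read as CGTCA on the strand printed, and *Fos* held 2. The CArG box bound by serum response factor was found in *Zfp36* alone of the 8, against 1.64% of all promoters. Bases further upstream than 250 were not searched, so a motif not found here may lie outside the window. The EGR motif GCGNGGGCG was found in *Fosb*, *Zfp36* and *Nr4a1* against 5.60% of all, and the TATA box letters TATAAA in *Fos* and *Junb* against 13.6%. The AP-1 letters TGANTCA were in 0 of the 8 windows and in 7.79% of all promoters. The members' promoters had 58.7% to 72.3% G and C and 15 to 35 CpG dinucleotides, where the median promoter had 53.0% and 7. The shares over all promoters were not matched for this composition, and both TGACG and the EGR motif contain CG. A match is a description of letters and not of binding.

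The 3′ untranslated regions carry the AU-rich letters TATTTAT, at which ZFP36 and its relatives bind to shorten the life of a transcript. These letters were found 11 times in 6 of the 10 members and in 29.9% of 11562 genes averaging at least 1 CPM. Among 5859 genes whose 3′ untranslated region was within the members' range of 488 to 2305 bases, the share was 27.6%. *Dusp1* and *Zfp36* each held 3 copies and *Fos* held 2, while 7.56% of the genes in that range held 2 or more. *Fosb*, *Jun* and *Atf3* held 1 copy, and *Junb*, *Egr1*, *Ier2* and *Nr4a1* held none. A copy from each of the genes with several is shown with 10 bases on either side, the motif in capitals, beginning at base 659 (*Fos*), 107 (*Dusp1*) and 578 (*Zfp36*) of the 3′ untranslated region in the GENCODE transcript.
Fos: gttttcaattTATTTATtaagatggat
Dusp1: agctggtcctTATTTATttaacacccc
Zfp36: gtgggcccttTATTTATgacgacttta

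The libraries held between 13036643 reads (mouse 24) and 32855343 reads (mouse 5) assigned to transcripts. Levels are given as CPM, the read count of a gene relative to the total of its library, after TMM scaling, which sets libraries level by the bulk of their genes. Every member but *Atf3* had at least 811 reads in every mouse, and *Atf3* had between 74 and 272 reads. Over all genes tested, the biological coefficient of variation was 43.6%. *Tet2* read over the whole gene was 83.8 ± 12.95 CPM (SD, n = 3) in Cebpa-/p30 Tet2+/+ and 95.8 ± 16.0 CPM (SD, n = 3) in Cebpa-/p30 Tet2-/- blasts. The exons removed are not given in the sources used here, so this sum does not check the labels. The primary granule gene *Mpo* stood between 2661 and 4526 CPM, and *Cd3e*, *Cd3g* and *Cd3d* were at most at 8.36 CPM in any mouse.

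The first question was whether the AP-1 subunits differ between genotypes. FOS dimerizes with JUN proteins to form the AP-1 transcription factor. *Fos* (ENSMUSG00000021250, chromosome 12 of GRCm38, 85473890 to 85477273) was at 533, 814 and 489 CPM in Cebpa-/p30 Tet2+/+ mice 19, 23 and 24 and at 286, 976 and 884 CPM in Cebpa-/p30 Tet2-/- mice 5, 7 and 8. Both the lowest and the highest mouse were *Tet2*-deficient, and the log2 fold change was 0.23 (SE 0.46, edgeR adjusted p = 0.929). Here and for every gene named, SE is the standard error and p is adjusted by Benjamini-Hochberg over all genes tested. *Fosb* (chromosome 7, 19302696 to 19310051), another FOS family subunit, was at 217, 181 and 68.6 CPM against 25.6, 354 and 335 CPM. The *Tet2*-deficient mice lay on both sides of the others, mouse 5 below and mice 7 and 8 above all 3, and the range between mice was 13.8-fold, wider than for any other member. The log2 fold change of *Fosb* was 0.61 (SE 0.86, edgeR adjusted p = 0.889).

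*Jun* (chromosome 4, 95049034 to 95052222), the founding member of the JUN family of AP-1 subunits, was at 583, 871 and 337 CPM in mice 19, 23 and 24, against 386, 809 and 569 CPM in mice 5, 7 and 8. Its lowest and highest mouse both had intact *Tet2*, and the log2 fold change was -0.022 (SE 0.41, edgeR adjusted p = 0.995). *Junb* (chromosome 8, 84974484 to 84978718), a JUN family member that restrains myeloid proliferation, was at 318, 363 and 345 CPM against 409, 783 and 271 CPM. The 3 mice with intact *Tet2* were close together, and the *Tet2*-deficient mice enclosed them, with mouse 7 far above and mouse 8 below. *Junb* had the smallest p of the members, an unadjusted p of 0.213 and an edgeR adjusted p of 0.773, at a log2 fold change of 0.51 (SE 0.37). Exons of *Jun* overlap the antisense gene *Junos* over 7.28% of their bases and those of *Junb* overlap *Prdx2* over 7.52%. The library kit does not keep strand, so reads there could not be told apart.

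*Atf3* (chromosome 1, 191170296 to 191218039), a stress-induced repressor that pairs with JUN proteins, was the lowest of the members, at 11.3, 14.6 and 5.21 CPM against 5.85, 5.66 and 13.6 CPM. Mice 19, 23 and 8 formed the upper group and mice 24, 5 and 7 the lower, across genotypes. The log2 fold change was -0.31 (SE 0.50, edgeR adjusted p = 0.906).

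**Figure D1:**
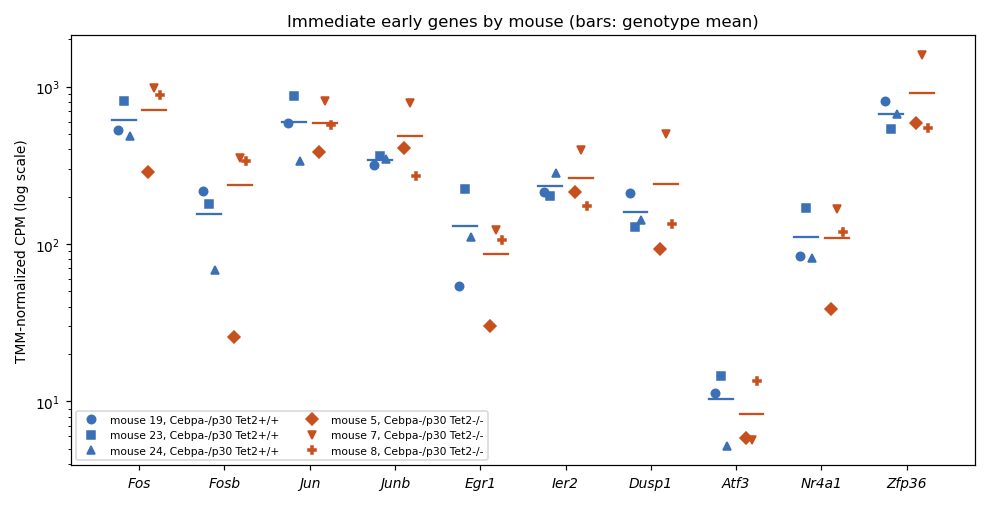
CPM (log axis) of the 10 immediate early genes in each mouse, with Cebpa-/p30 Tet2+/+ in blue and Cebpa-/p30 Tet2-/- in orange, 1 symbol per mouse and a bar for the mean of the 3 mice. For every gene the points of the genotypes overlap, and mouse 5 (diamond) and mouse 7 (downward triangle) often stand at opposite ends of the *Tet2*-deficient group.

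Of the nuclear factors outside AP-1, EGR1 is a zinc finger protein that binds GC-rich promoters. *Egr1* was at 54.4, 223 and 112 CPM in mice 19, 23 and 24, against 29.9, 123 and 107 CPM in mice 5, 7 and 8. Its range was 7.43-fold, with mouse 23 highest and mouse 5 lowest, and the log2 fold change was -0.58 (SE 0.63, edgeR adjusted p = 0.853). *Nr4a1* (chromosome 15, 101254269 to 101274795) encodes an orphan nuclear receptor that needs no ligand and acts as soon as it is made. It was at 83.7, 169 and 81.4 CPM against 38.6, 168 and 120 CPM. Mice 23 and 7, of different genotypes, were nearly equal at the top, and the log2 fold change was -0.036 (SE 0.54, edgeR adjusted p = 0.994).

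The feedback genes were highest in mouse 7. *Dusp1* (chromosome 17, 26505590 to 26562128), a phosphatase that switches off p38 and JNK, was at 211, 128 and 142 CPM in mice 19, 23 and 24, against 93.0, 498 and 133 CPM in mice 5, 7 and 8. *Zfp36* (chromosome 7, 28376784 to 28380253), which encodes tristetraprolin, was at 812, 535 and 675 CPM against 587, 1599 and 549 CPM. *Ier2* (chromosome 8, 84661331 to 84662852), a nuclear protein of the growth factor response, was at 215, 202.6 and 284 CPM against 214, 399 and 174 CPM. For all 3 genes, mouse 7 stood above every other mouse, while mice 5 and 8 were within or below the range of the mice with intact *Tet2*. The log2 fold changes were 0.59 (SE 0.61, edgeR adjusted p = 0.847) for *Dusp1*, 0.44 (SE 0.45, edgeR adjusted p = 0.847) for *Zfp36* and 0.17 (SE 0.33, edgeR adjusted p = 0.928) for *Ier2*. Of the *Zfp36* exon bases, 3.60% overlap the antisense gene *Gm44710*.

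Over the 10 members, 6 had a higher and 4 a lower level in *Tet2*-deficient blasts, and the median of their log2 fold changes was 0.20 beside 0.0016 for the 22170 genes. At an adjusted p under 0.05, edgeR called 0 members, where it called 0.0451% of all genes, 10 lower and 0 higher. DESeq2 on the same counts also called 0 members, where it called 2.16% of the 17803 genes with an adjusted p (326 or 1.83% lower, 59 or 0.331% higher). At an unadjusted p under 0.05 the count of members was again 0 with edgeR and with DESeq2, where 8.11% of all genes passed with edgeR (5.12% lower, 3% higher) and 8.52% of 22102 genes with DESeq2 (5.01% lower, 3.51% higher). The number of members without overlap between the genotypes was 0, where 16% of the 13839 genes averaging at least 1 CPM had none (7.71% lower, 8.24% higher). Two-sided exact permutation tests on log2 CPM gave p between 0.6 and 1 for the members, and 3 mice against 3 cannot give a p below 0.1.

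These values do not show equal levels, since the 95% intervals of the log2 fold changes were wide. The narrowest was that of *Ier2*, from -0.62 to 0.95, and the widest that of *Fosb*, from -1.41 to 2.64. *Fos* ran from -0.86 to 1.31 and *Egr1* from -2.07 to 0.91. Leaving out single mice turned the direction. Without mouse 7, 9 of the 10 members were lower and the median log2 fold change was -0.26, and without mouse 23, 9 were higher and the median was 0.36. Without mouse 5, 8 were higher, the median was 0.48, and *Fos* and *Fosb* no longer overlapped between genotypes, where 25.4% of genes had no overlap. Without mouse 8, *Junb* no longer overlapped, where 29.7% of genes had none. The edgeR unadjusted p was then 0.0471 for *Fosb* and 0.0403 for *Junb*, with adjusted p of 0.649 and 0.532. At an unadjusted p under 0.05, edgeR had 1161 of 20905 genes lower and 439 higher without mouse 5. Without mouse 8 it had 1100 of 21538 genes lower and 890 higher. With scaling by library size alone, the median over all genes tested was -0.17 and that of the members -0.0073, with 5 higher and 5 lower.

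**Figure D2:**
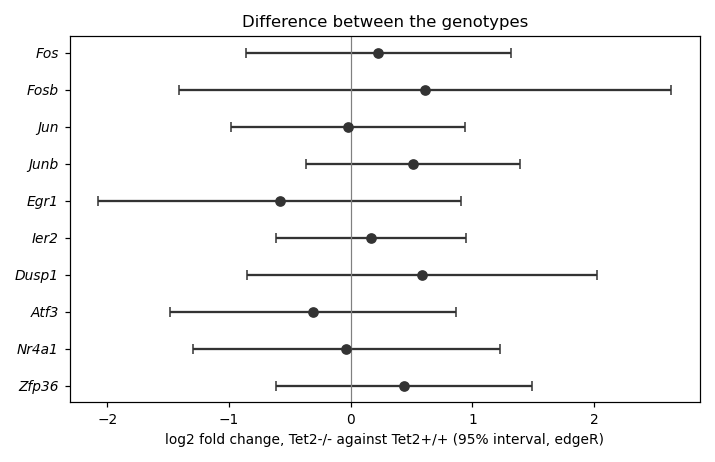
Log2 fold change of each immediate early gene in Cebpa-/p30 Tet2-/- against Cebpa-/p30 Tet2+/+ blasts (3 mice each), with the 95% interval from edgeR as a horizontal bar and a vertical line at 0. All 10 intervals hold 0, and that of *Fosb*, from -1.41 to 2.64, is the widest.

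What the members had in common was a large spread among mice of 1 genotype. The SD of log2 CPM within a genotype, pooled over both, had a median of 0.75 over the members and of 0.29 over 9175 genes averaging at least 10 CPM. All 10 members lay above that median, and 6 (*Fosb*, *Egr1*, *Dusp1*, *Nr4a1*, *Fos* and *Atf3*) lay above the 90th percentile of those genes. *Atf3* averaged 9.36 CPM, below the floor of that set, and so was ranked against genes with more reads. The values were 1.65 for *Fosb*, 1.07 for *Egr1* and 0.94 for *Dusp1*, and the smallest was 0.48 for *Ier2*. The highest mouse exceeded the lowest by a median of 3.20-fold for the members and 1.77-fold for those genes. Within Cebpa-/p30 Tet2-/- the median range was 3.16-fold for the members and 1.54-fold for all those genes, and within Cebpa-/p30 Tet2+/+ 1.87-fold and 1.298-fold. The range was wider in the *Tet2*-deficient mice for 8 of the 10 members and for 73.7% of those genes. These are descriptions of 6 libraries, and no test was made.

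**Figure D3:**
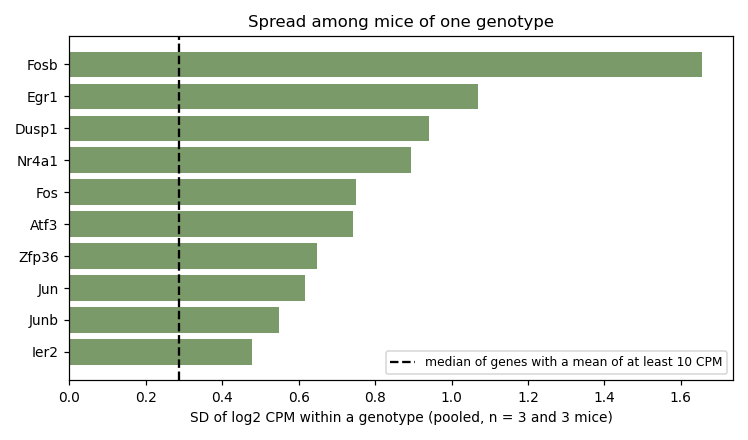
SD of log2 CPM among mice of the same genotype, pooled over the 2 genotypes of 3 mice, as 1 bar per immediate early gene. The dashed line marks the median of 0.29 over 9175 genes averaging at least 10 CPM, and the bars run from 0.48 (*Ier2*) to 1.65 (*Fosb*), all beyond it.

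The spread followed the mice. Mouse 7 had the highest value for 6 members and mouse 23 for the other 4, while mouse 5 had the lowest for 5. Over the 9175 genes, mouse 7 was highest for 28.9%, mouse 23 highest for 13.4% and mouse 5 lowest for 13.3%. The 10 members summed to 2075 CPM in mouse 5 and 5715 CPM in mouse 7, both *Tet2*-deficient, with the other mice between 2539 and 3501 CPM. Of the members, 9 were higher in mouse 7 than in mouse 5, as were 45.4% of the 9175 genes. The median ratio of mouse 7 to mouse 5 was 3.07 over all 10 members and 0.950 over the 9175 genes. The mean deviation of the members from the average of the 6 mice, on the log2 scale, was -0.0045, 0.31 and -0.31 in mice 19, 23 and 24, against -0.88, 0.76 and 0.13 in mice 5, 7 and 8. Mouse 5 also had the most reads.

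Within the members, 2 patterns were seen among the mice, chosen after the values were seen and given with no test. The mean of *Fos*, *Fosb*, *Jun*, *Egr1* and *Nr4a1* was high in mice 23, 7 and 8 and low in mouse 5, with a deviation of 0.70, 0.75, 0.47 and -1.41 in these mice. The single genes departed from this mean in places, since *Jun* was lowest in mouse 24 and near its average in mouse 8, *Fosb* was higher in mouse 19 than in mouse 23, and *Egr1* was higher in mouse 24 than in mouse 8. *Junb*, *Ier2*, *Dusp1* and *Zfp36* were each highest in mouse 7, with a mean deviation of 1.11 there and between -0.43 and 0.0077 in the other 5. Over the 6 mice, Pearson's r between genes of the first pattern was between 0.60 and 0.97, led by *Fos* with *Nr4a1*, and between genes of the second it was between 0.74 and 0.96, led by *Dusp1* with *Zfp36*. Between the patterns it was between 0.058 and 0.65. *Atf3* fell in neither, with r between 0.36 and 0.54 to the first and between -0.73 and -0.23 to the second. All points share the same 6 libraries and their cell make-up.

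The mouse that led the second pattern also had the most RNA of mature neutrophil markers. The 10 markers of mature neutrophils, among them *Ltf*, *Camp*, *Ngp* and *S100a8*, summed to 58687, 11651 and 42865 CPM in mice 19, 23 and 24, against 66104, 122074 and 25860 CPM in mice 5, 7 and 8. Mouse 7 was highest and mouse 23 lowest, as for *Zfp36*, and all 10 markers were higher in *Tet2*-deficient blasts, at a median change of 0.92 on the log2 scale. This rested on mouse 7, without which 6 were higher and 4 lower at a median of 0.25, and the median was 0.48 without mouse 23. The 10 monocyte and macrophage markers, among them *Csf1r*, *Ccr2* and *F13a1*, summed to 1002, 2559 and 895 CPM against 2084, 446 and 3599 CPM, with mouse 7 lowest and mouse 8 highest. In mouse 7, *Csf1r* was at 87.4 CPM and *Cx3cr1* at 2.44 CPM, and in mouse 8 at 748 and 201.8 CPM. No neutrophil or monocyte marker passed an adjusted p of 0.05 between the genotypes with edgeR or with DESeq2, nor an unadjusted p of 0.05 with edgeR. Markers of stem and progenitor cells summed to between 148 CPM in mouse 7 and 408 CPM in mouse 23, those of B cells to at most 84.9 CPM, and erythroid markers to 145 CPM in mouse 19 and at most 15.2 CPM in the others. Lower in *Tet2*-deficient blasts were 7 of 8 stem and progenitor markers, at a median change of -0.88 on the log2 scale, and 7 of 7 tested erythroid markers, at a median of -2.21, with 0 called by either tool. The erythroid direction rested on mouse 19, without which 3 were higher and 4 lower at a median of -0.34, and the summed level of each *Tet2*-deficient mouse was above those of mice 23 and 24. Without mouse 24 the median of 6 tested stem and progenitor markers was -0.53. Of 5 tested megakaryocyte and platelet markers, 1 was higher and 4 lower, which became 4 and 1 without mouse 19 or without mouse 5. Of the 5 primary granule markers, 3 were higher and 2 lower at a median of 0.065, with 0 called by either tool. *Mpo* was at 4526, 4108 and 4229 CPM against 3393, 3090 and 2661 CPM, lower without overlap (edgeR adjusted p = 0.664), and *Ms4a3* was at 248, 137 and 193 CPM against 331, 291 and 311 CPM, higher without overlap (edgeR adjusted p = 0.580). Of the markers of other cell types, DESeq2 called 4, all lower and named after their values were seen, *Cpa3* of mast cells (adjusted p = 0.00019), *Il5ra* of eosinophils (0.0026), *Ncr1* of NK cells (0.0026) and *Siglech* of plasmacytoid dendritic cells (0.0010), beside 1.83% of all genes called lower. With edgeR their adjusted p was between 0.185 and 0.321. Their lists held markers of both directions, with 2 markers higher and 3 lower for basophils and mast cells (median change -0.079 on the log2 scale), 1 and 4 for eosinophils (-0.77), 5 and 4 for T and NK cells (0.025), and 2 and 3 for plasmacytoid dendritic cells (-0.19). Over the 6 mice, as a description, r with the mean of the neutrophil markers was between 0.64 and 0.82 for the 4 genes of the second pattern and between -0.48 and -0.063 for the 5 of the first. With the monocyte and macrophage markers it was between -0.95 (*Ier2*) and -0.76 (*Dusp1*) for the second pattern and between -0.086 and 0.028 for the first. With the primary granule markers it was between -0.95 (*Egr1*) and -0.38 (*Fosb*) for the first pattern, with *Nr4a1* at -0.76 and *Fos* at -0.60, and between -0.17 and 0.036 for the second. With the stem and progenitor markers it was between -0.74 (*Fos*) and -0.40 (*Jun*) for the first and between -0.82 (*Dusp1*) and -0.63 (*Junb*) for the second. That mean rests on the 3 markers averaging at least 1 CPM, *Kit*, *Cd34* and *Flt3*, of which *Flt3* was higher and the others lower in *Tet2*-deficient blasts. For *Atf3*, r was -0.75 with the neutrophil and 0.75 with the monocyte and macrophage markers. The part of all these marker lists in the levels of the immediate early genes was not tested, and in RNA of whole sorted populations fewer cells of a type and less RNA per cell cannot be told apart.

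Heat shock genes, which respond to heat and to the handling of cells, were read beside the members. Of 11 heat shock genes, the 10 averaging at least 1 CPM had a mean deviation of -0.43, 0.51 and -0.80 in mice 19, 23 and 24, against 0.30, 0.062 and 0.37 in mice 5, 7 and 8. Mouse 5, lowest for the members, was thus above mice 19 and 24 for heat shock genes, and mouse 7, highest for the members, was near the average. Of these, 3 are named after their values were seen. The inducible chaperone gene *Hspa1b* was at 41.1, 224 and 19.1 CPM against 114, 322 and 137 CPM, highest in mice 7 and 23. Its near-identical copy *Hspa1a* was at 1.20, 82.8 and 1.90 CPM against 23.7, 83.4 and 26.4 CPM, and reads could have been split between the copies. The constitutive *Hspa8* was at 1433, 1821 and 1290 CPM against 1785, 1198 and 2609 CPM, lowest in mouse 7. Of the list, 10 were higher and 1 lower in *Tet2*-deficient blasts (7 and 4 when scaled by library size alone), at a median change of 0.29 on the log2 scale (0.083 when scaled by library size alone, 0.076 without mouse 8 and 0.086 without mouse 24), and 0 passed an adjusted or an unadjusted p of 0.05 with edgeR or an adjusted p of 0.05 with DESeq2. The mitochondrial share of reads was 2.66%, 3.41% and 3.35% in mice 19, 23 and 24, against 2.001%, 1.79% and 2.60% in mice 5, 7 and 8. The part of cell handling in the levels of the members was not tested.

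**Figure D4:**
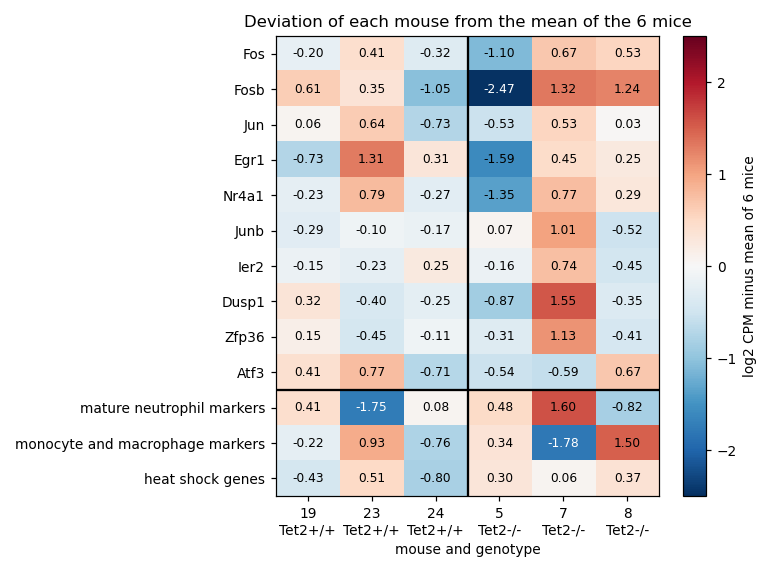
Deviation of each mouse from the mean of the 6 mice in log2 CPM (colour and printed value) for the 10 immediate early genes. Below the thick line is the mean deviation of 3 fixed lists, over their genes averaging at least 1 CPM. Cebpa-/p30 Tet2+/+ mice are left of the vertical line and Cebpa-/p30 Tet2-/- mice right of it. Mouse 5 is low for *Fos*, *Fosb*, *Egr1* and *Nr4a1*, mouse 7 is high for *Junb*, *Ier2*, *Dusp1* and *Zfp36* as for neutrophil markers, and *Atf3* follows neither.

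Levels between genes were compared in TPM, a per-library scale that divides by transcript length. By mean TPM over the 6 mice, *Fos* led with 219 ± 90.8 TPM (SD, n = 6), followed by *Zfp36* with 178 ± 82.8, *Junb* with 110 ± 45.1, *Jun* with 94.5 ± 36.7, *Dusp1* with 85.7 ± 56.5, *Ier2* with 84.1 ± 26.8, *Nr4a1* with 59.9 ± 31.7, *Fosb* with 27.9 ± 18.4, *Egr1* with 20.8 ± 13.9 and *Atf3* with 2.91 ± 1.11 TPM. *Zfp36* exceeded *Junb*, *Nr4a1* exceeded *Fosb* and *Egr1* exceeded *Atf3* in 6 of 6 mice. *Fos* exceeded *Zfp36*, *Junb* exceeded *Jun*, *Dusp1* exceeded *Ier2* and *Fosb* exceeded *Egr1* in 3 of 6 mice each, *Jun* exceeded *Dusp1* in 4 and *Ier2* exceeded *Nr4a1* in 5, so these neighbours did not differ beyond their spread.

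The make-up of AP-1 transcripts was read from TPM within each mouse. FOS family transcripts (*Fos*, *Fosb*, *Fosl1*, *Fosl2*) and JUN family transcripts (*Jun*, *Junb*, *Jund*) stood at a ratio of 1.04, 1.15 and 1.03 in mice 19, 23 and 24, against 0.553, 1.04 and 1.96 in mice 5, 7 and 8. The mice with intact *Tet2* were close together and the others lay on both sides of them, and the difference between the means was within that spread (two-sided exact permutation test, p = 0.9, n = 3 and 3). *Fos* made up 81.0% to 89.6% of the FOS family in every mouse. *Jun* made up 46.2%, 54.1% and 31.3% of the JUN family in mice 19, 23 and 24, against 31.3%, 34.0% and 49.1% in mice 5, 7 and 8, and *Junb* 42.5%, 37.7% and 54.6% against 55.0%, 55.4% and 39.2%. *Jun* therefore led *Junb* in mice 19, 23 and 8 and followed it in mice 24, 5 and 7, the same split of the mice as for *Atf3*. This likeness was noted after the values were seen.

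Reads were also assigned to single transcripts, an estimate where transcripts share exons. For *Dusp1*, transcripts with a retained intron took 64.8%, 62.7% and 79.8% of the gene's reads in mice 19, 23 and 24, against 76.4%, 50.5% and 93.3% in mice 5, 7 and 8. The spliced coding transcript was at 74.4, 47.8 and 28.7 CPM against 21.9, 247 and 8.89 CPM, a range of 27.7-fold, where the transcripts with a retained intron ranged 3.54-fold. Mice 7 and 8, of the same genotype, were thus the highest and the lowest for spliced *Dusp1*, with 3839 and 164 reads. The difference between genotypes in the retained share was within the spread (two-sided exact permutation test, p = 0.9, n = 3 and 3). The spliced transcript of *Zfp36* was likewise highest in mouse 7 at 279 CPM and lowest in mouse 8 at 45.3 CPM, and its single-exon transcript took 82.5% to 91.8% of the reads. For *Fosb* a transcript with a retained intron took 34.6% to 43.2% and for *Nr4a1* 9.84% to 26.0%, with differences between genotypes within the spread (two-sided exact permutation tests, p = 0.4 and 0.3, n = 3 and 3). Over all genes, transcripts with a retained intron took 6.76% to 7.82% of a library's reads.

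**Figure D5:**
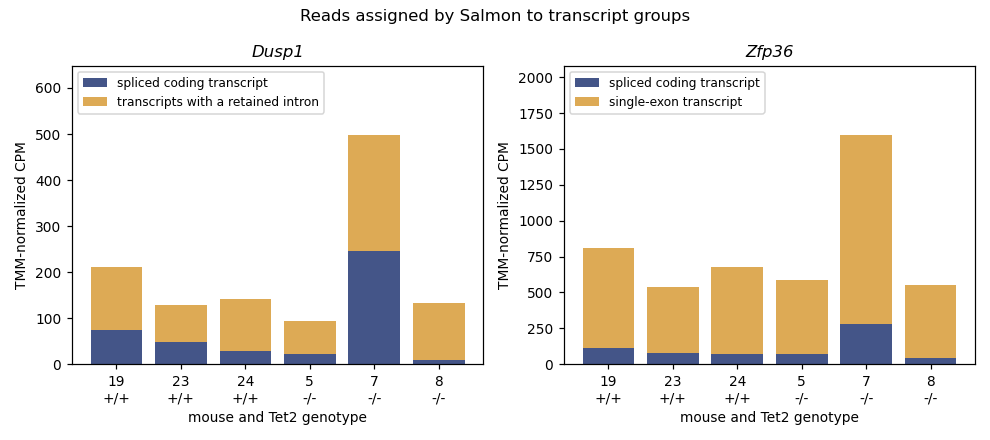
CPM that Salmon assigned to transcript groups of *Dusp1* (left) and *Zfp36* (right) in each mouse, stacked, with the *Tet2* genotype under the mouse number. The spliced coding transcript of *Dusp1* is at 247 CPM in mouse 7 and 8.89 CPM in mouse 8, both *Tet2*-deficient.

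Relatives of the members were read from fixed lists. Of the 12 other AP-1 and related subunits, 9 were higher and 3 lower in *Tet2*-deficient blasts, also when scaled by library size alone, at a median change of 0.43 on the log2 scale (0.23 when scaled by library size alone and 0.20 without mouse 7). None passed an adjusted p of 0.05 with edgeR. Those higher with an unadjusted p under 0.05 numbered 3, beside 3% of all genes, and DESeq2 called 1, *Maff* (adjusted p = 0.0423), beside 0.331% of all genes called higher. *Maff*, a small MAF protein without an activation domain, was at 3.17, 1.55 and 1.69 CPM against 5.88, 4.56 and 6.29 CPM, higher in 3 of 3 *Tet2*-deficient mice, at a log2 fold change of 1.38 (SE 0.40, edgeR adjusted p = 0.491). *Fosl2*, a late FOS family subunit, was at 106, 104 and 99.2 CPM against 120, 210 and 111 CPM, also without overlap (edgeR adjusted p = 0.666). *Fosl1* was at 0.837, 0.428 and 0.845 CPM against 1.08, 1.16 and 5.10 CPM, and mouse 8 stood apart.

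Of the 6 tested EGR and NR4A relatives and their corepressors, 3 were higher and 3 lower, and none passed an adjusted or unadjusted p of 0.05 with edgeR or an adjusted p of 0.05 with DESeq2. *Egr2*, which acts with EGR1 in macrophage fate, was at 3.83, 5.19 and 5.49 CPM against 1.11, 2.64 and 3.80 CPM, lower without overlap (log2 fold change -0.95, edgeR adjusted p = 0.669). Of 8 other MAP kinase phosphatases, 4 were higher and 4 lower (2 and 6 when scaled by library size alone). None passed an adjusted p of 0.05 with edgeR or DESeq2, and 1 in each direction had an unadjusted p under 0.05, beside 5.12% of all genes lower and 3% higher. *Dusp2*, which acts on ERK and p38 in the nucleus, was at 68.0, 92.9 and 51.7 CPM against 19.01, 49.7 and 39.4 CPM, a log2 fold change of -0.98 (edgeR adjusted p = 0.604). *Dusp6*, the cytoplasmic ERK phosphatase, was at 114, 72.6 and 84.8 CPM against 106, 235 and 304 CPM, where mouse 5 fell among the mice with intact *Tet2*; it is named after its values were seen.

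Of 31 further immediate early and early response genes, 23 were higher and 8 lower (19 and 12 when scaled by library size alone), at a median change of 0.35 on the log2 scale (0.14 when scaled by library size alone). Without mouse 7 the direction turned, with 13 higher and 18 lower at a median of -0.027. None passed an adjusted p of 0.05 with edgeR or DESeq2, and 3 were higher with an unadjusted p under 0.05 from edgeR, beside 3% of all genes. Of the 28 averaging at least 1 CPM, 3 were higher without overlap, *Nfil3*, *Nfkbia* and *Mcl1*, a share near the 8.24% of all such genes and so no result about the list. *Nfkbia*, the inhibitor that NF-κB itself induces, was at 88.2, 72.1 and 70.3 CPM against 193, 170 and 89.5 CPM, a log2 fold change of 0.97 (SE 0.29, edgeR adjusted p = 0.507). *Nfil3*, a basic leucine zipper repressor, was at 30.2, 18.3 and 17.8 CPM against 56.7, 42.2 and 32.0 CPM, and *Mcl1*, a survival factor of the BCL2 family, at 375, 351 and 343 CPM against 473, 560 and 454 CPM. For these genes mouse 5 was not low, unlike for *Fos* or *Egr1*. Of the relatives of ZFP36, *Zfp36l1* was at 40.6, 109 and 31.9 CPM against 63.3, 25.6 and 110 CPM, highest in mice 8 and 23 and lowest in mouse 7, and *Zfp36l2* at 441, 587 and 519 CPM against 373, 335 and 542 CPM, also lowest in mouse 7, where *Zfp36* was highest, and both relatives are named after their values were seen.

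Upstream of the members, 15 of 25 MAP kinases and SRF or CREB factors were higher and 10 lower (12 and 13 when scaled by library size alone). None passed an adjusted p of 0.05 with edgeR or DESeq2, and 5 were higher with an unadjusted p under 0.05 from edgeR, beside 3% of all genes. Without overlap, 6 of the 25 were higher and 1 lower, beside 8.24% and 7.71% of all genes averaging at least 1 CPM. The lower one, *Mapk9*, was at 59.2, 64.0 and 49.5 CPM against 48.8, 44.7 and 46.8 CPM. *Srf*, which encodes serum response factor, was at 52.7, 61.3 and 48.6 CPM against 64.0, 79.2 and 75.7 CPM, higher in 3 of 3 mice (log2 fold change 0.43, SE 0.17, edgeR adjusted p = 0.604). *Mapk3*, which encodes ERK1, was at 189, 178 and 159 CPM against 251, 332 and 212 CPM. *Mapkapk2*, the kinase that p38 uses to control ZFP36, was at 291, 289 and 255 CPM against 423, 337 and 433 CPM (edgeR adjusted p = 0.583), and *Atf1* at 122, 99.6 and 89.8 CPM against 139, 150 and 124 CPM.

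Of 10 tested transcripts known to be bound by ZFP36, 5 were higher and 5 lower (4 and 6 when scaled by library size alone), and none passed an adjusted p of 0.05 with edgeR or DESeq2, with 2 lower at an unadjusted p under 0.05, beside 5.12% of all genes. *Ccl4* was at 4.72, 9.69 and 11.2 CPM against 2.94, 4.05 and 3.69 CPM, lower without overlap (log2 fold change -1.26, SE 0.39, edgeR adjusted p = 0.526). *Tnf*, the best known target, was at 246, 223 and 141 CPM against 82.5, 523 and 115 CPM, highest in mouse 7 and lowest in mouse 5 as *Dusp1* was; it is named after its values were seen.

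By the likeness of their pattern to the mean of the members over the 6 mice, 10 genes led among 10574 candidates averaging at least 5 CPM. They were *Acad8*, *Abraxas2*, *Insig1*, *Polg2*, *Kctd12*, *Inafm2*, *Pak1*, *Samhd1*, *Rassf2* and *Gm17275*, with Pearson's r from 0.996 down to 0.960, and 82 candidates were above 0.9. *Acad8*, a mitochondrial enzyme of valine breakdown, was at 26.7, 30.03 and 22.7 CPM against 18.1, 34.5 and 26.9 CPM, with the mice in the same order as the mean of the members and a range far smaller than that of *Fosb*. With 6 points, and so many candidates, such values are a description only.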

How the data were processed

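RNA-seq of 6 sorted AML blast samples was analysed, 3 of each genotype. The authors quantified reads with Salmon 0.12.0 in the bcbio pipeline against Ensembl transcripts of GRCm38 (the submitters' notes also name mm10 and GRCm38.p6), and deposited an estimated count and a TPM value per transcript. Here estimated counts were summed per gene with the GENCODE M21 annotation and rounded, and TPM was summed. Of 136288 transcripts, 112 had no gene and were left out (at most 0.0416% of reads). The libraries held 13036643 to 32855343 reads, and counting error covers neither mice nor handling. Genes reaching a sum of at least 10 over the 6 samples, after scaling to library size, entered the quasi-likelihood test in edgeR 4.0.16 (R 4.3.3, TMM factors, Benjamini-Hochberg adjustment, threshold 0.05), which was checked on simulated counts. Standard errors were derived from the test statistic. The alternatives were DESeq2 1.42.0, length-scaled counts, other filters and scalings, protein-coding transcripts only, and each mouse left out (for the lists, added after seeing the data). The members and lists were chosen with earlier results of these data known. Genes named are the 10 members, *Tet2*, from each list up to 4 with the largest change among those averaging at least 1 CPM whose genotypes did not overlap, and 10 by likeness. Other genes given with values, among them *Mpo*, *Ms4a3*, the *Cd3* genes, *Csf1r* and *Cx3cr1*, were chosen after their values were seen. No mouse number is shared between the genotypes and no batch is given. Motifs and 3′ untranslated regions were read with Python 3.11.15 from RefSeq promoters and GENCODE transcripts. The values of 1 gene are not reported here.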

Additional observations from a re-analysis of the deposited data

How the results depend on the processing

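No paired analysis was possible because the genotypes share no mouse number. Under 15 alternatives, 0 members passed an adjusted p of 0.05 with edgeR or DESeq2. The median log2 fold change of the members, 0.20 with all mice, ran from -0.26 to 0.48 with 1 mouse left out, so its sign changed. It moved by less than the spread of 0.63 between mice of a genotype. That spread comes from the same mice and so does not show that the median is stable. Of the members, only *Fosb* stayed higher under all 15, and *Atf3* was lower or, without mouse 23, at -0.00016. With 1 mouse left out, the log2 fold change ran from -0.071 to 0.60 for *Fos*, 0.21 to 1.15 for *Fosb*, -0.32 to 0.34 for *Jun*, -0.0056 to 0.80 for *Junb*, -0.95 to 0.038 for *Egr1*, -0.27 to 0.39 for *Ier2*, -0.50 to 0.98 for *Dusp1*, -0.84 to -0.00016 for *Atf3*, -0.50 to 0.38 for *Nr4a1* and -0.24 to 0.70 for *Zfp36*. Scaling by library size only turned *Ier2* to -0.044, where the median of all genes was -0.17. Members without overlap numbered 0 to 2 with 1 mouse left out, where 19.9% to 33% of genes averaging at least 1 CPM had none. The number of genes called lower and higher, 10 and 0 with edgeR, was 326 and 59 with DESeq2, 5 lower on length-scaled counts with edgeR, 322 and 64 on length-scaled counts with DESeq2, 62 and 4 without a filter on low counts, 1 lower on protein-coding transcripts only, and 1 higher with RLE factors or with filterByExpr. It was 0 to 7 lower with 1 mouse left out. The cause of these shifts was not tested. With 3 mice a genotype, the wide intervals leave differences of several-fold undetectable for *Fosb*, *Egr1* and *Dusp1*, and *Atf3* rests on few reads.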
